A study of Mus musculus with 12 samples.

Results

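The genes described here encode the proteins of the mitochondrial ribosome. They were taken by name from the deposited tables of J774.1 cells: every protein-coding gene whose symbol is Mrpl or Mrps, a number and at most one further letter. This gave 78 of the 25683 genes in the tables, 49 with an Mrpl and 29 with an Mrps symbol, on 17 chromosomes. The rule reads names alone, and all 78 passed the filter on low counts, with 487 to 14202 exon reads per gene and library. By their place in the ribosome, 51 belong to the large subunit and 26 to the small subunit. Mrps36 carries the name but is now seen as part of the oxoglutarate dehydrogenase complex, and Mrps30 and Mrps18a are large-subunit proteins in spite of their symbols.

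J774.1 is a macrophage-like line from the BALB/c mouse, and libraries were made from its total RNA and sequenced. Cells came in 3 genotypes, labelled GATA3-KO, Rictor-KO and WT, and were given isorhamnetin (IR), a methylated plant flavonol, at 10 µM, or DMSO, for 6 h. That made 6 groups of 2 libraries: GATA3-KO IR, GATA3-KO DMSO, Rictor-KO IR, Rictor-KO DMSO, WT IR and WT DMSO. The design asks how loss of either gene changes the profile and the response to isorhamnetin. Gata3 encodes a zinc finger transcription factor, and Rictor encodes a defining subunit of the kinase complex mTORC2. The labels give each knockout 1 name and no clone, so a knockout and the history of its cells cannot be told apart. The labels do not say whether the 2 libraries of a group are separate cultures. The p-values therefore speak of library-to-library spread only, and part or all of it may be technical.

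Mitochondria make the proteins of their own genome, all of them core parts of the respiratory chain and the ATP synthase, on a ribosome of bacterial ancestry. Its RNAs are transcribed in the organelle, while its proteins are encoded in the nucleus, made in the cytosol and imported. Some of these proteins have counterparts in bacterial ribosomes, and others were added in the line leading to mitochondria. In macrophages, the respiratory chain that depends on this ribosome is known to change with activation.

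Exon reads numbered 35671457 to 53099804 per library. Levels are given as CPM, the count of a gene as a share of its library after TMM scaling, which assumes that most genes do not change. WT DMSO depends on that scaling most, with factors of 0.912 and 0.913, against 0.992 to 1.05 in the other 10 libraries. The GATA3-KO libraries stood apart in the annotated exon length of the genes read. The median read lay in a gene with 2859 and 2761 bp of exon in GATA3-KO IR and 3064 and 2915 bp in GATA3-KO DMSO. In the other 8 libraries it lay in a gene with 3207 to 3389 bp. Gata3 had 0.282 to 0.498 CPM in GATA3-KO, 0.331 to 0.707 in Rictor-KO, 0.814 to 0.908 in WT IR and 1.15 to 1.60 in WT DMSO, too few reads to check the label. Rictor had 23.0 and 23.9 CPM in Rictor-KO IR and 34.3 and 31.2 in Rictor-KO DMSO, against 46.0 and 43.7 in WT IR and 60.8 and 63.0 in WT DMSO. It was also low in the other knockout, at 28.5 and 27.6 CPM in GATA3-KO IR and 36.2 and 32.3 in GATA3-KO DMSO. Reads from outside a deleted part would still be counted, so neither gene checks its label. Of 10 macrophage markers, 8 were over 10 CPM in every library, and their sum ran from 2594 to 10953 CPM. Of the 9 that were tested, 4 were lower and 1 higher in GATA3-KO IR than in WT IR, 6 were lower in GATA3-KO DMSO and 5 in Rictor-KO DMSO than in WT DMSO, and 5 fell and 1 rose with isorhamnetin in WT. Their part in the results below was not tested. In every library, no read came from 3 of 5 T cell markers, 2 of 4 B cell markers, 2 of 4 fibroblast markers or the 4 epithelial markers, and none of these lists summed to more than 4.75 CPM.

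The 78 genes were all expressed, at levels that differed 16.4-fold. On the deposited TPM, which are per length of transcript, the mean over 12 libraries was highest for Mrpl12 at 370 TPM, Mrpl52 at 345 and Mrpl42 at 259. Mrpl12 is the stalk protein of the large subunit, through which translation factors are recruited, while Mrpl52 and Mrpl42 are proteins without a bacterial counterpart. The lowest means were those of Mrpl48 at 22.6 TPM, Mrps17 at 25.0 and Mrpl1 at 28.9, and the median member had 89.5 TPM. These ranks depend on the length used: by share of reads, Mrps17 had 51.8 to 89.2 CPM and Mrpl55 14.3 to 23.8 CPM. The genes have 491 to 7605 bp of exon, with Mrpl52 the shortest.

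The windows around the transcription start sites of 4 members are shown because these genes carry the findings below: Mrpl52 had the largest fall with isorhamnetin in WT, Mrpl57 the largest rise with it in GATA3-KO, Mrpl32 the largest difference between those responses, and Mrpl28 the largest difference between genotypes. Each runs from 250 bases before to 50 after the start, from RefSeq on GRCm38.p6, written 5′ to 3′ on the gene's strand. Capitals mark matches to 3 short motifs of factors known to act on genes of mitochondrial proteins, searched on both strands: CCGGAAG for the ETS family, to which GABP belongs, GCGCATG for NRF1 and AAGATGG for YY1. The NRF1 motif can overlap itself on the other strand. Mrpl52 lies on the plus strand (chr14:54426659-54426958), Mrpl57 on the plus strand (chr14:57825989-57826288), Mrpl32 on the minus strand (chr13:14612988-14613287) and Mrpl28 on the plus strand (chr17:26123253-26123552).
Mrpl52: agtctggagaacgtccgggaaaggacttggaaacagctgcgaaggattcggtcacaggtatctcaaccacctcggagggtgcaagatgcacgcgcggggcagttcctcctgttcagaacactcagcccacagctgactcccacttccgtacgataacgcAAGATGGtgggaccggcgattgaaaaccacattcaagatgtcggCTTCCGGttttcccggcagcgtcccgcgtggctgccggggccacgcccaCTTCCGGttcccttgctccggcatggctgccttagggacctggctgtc
Mrpl57: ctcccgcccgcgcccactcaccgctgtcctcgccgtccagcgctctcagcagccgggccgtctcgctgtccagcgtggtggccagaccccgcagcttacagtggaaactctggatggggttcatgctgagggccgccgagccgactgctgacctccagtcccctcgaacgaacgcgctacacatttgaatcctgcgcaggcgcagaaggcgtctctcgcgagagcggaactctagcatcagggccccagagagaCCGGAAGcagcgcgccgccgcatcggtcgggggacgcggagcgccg
Mrpl32: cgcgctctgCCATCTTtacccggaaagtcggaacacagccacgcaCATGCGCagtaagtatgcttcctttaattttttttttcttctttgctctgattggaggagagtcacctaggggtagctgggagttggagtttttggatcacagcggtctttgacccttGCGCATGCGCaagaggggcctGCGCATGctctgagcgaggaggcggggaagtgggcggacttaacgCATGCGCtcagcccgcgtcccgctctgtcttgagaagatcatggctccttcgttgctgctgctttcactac
Mrpl28: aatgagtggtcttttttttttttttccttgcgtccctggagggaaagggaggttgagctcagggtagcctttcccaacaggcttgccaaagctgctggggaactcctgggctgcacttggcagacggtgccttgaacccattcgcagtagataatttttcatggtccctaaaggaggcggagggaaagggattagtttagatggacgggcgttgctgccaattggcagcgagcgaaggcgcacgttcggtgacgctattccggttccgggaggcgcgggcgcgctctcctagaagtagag
Mrpl52 holds 2 ETS matches, both on the other strand as CTTCCGG, and 1 YY1 match. Mrpl57 holds 1 ETS match. Mrpl32 holds 5 NRF1 matches, of which 2 overlap in 1 palindrome, and 1 YY1 match. Mrpl28 holds no match. Of the 78 members, 69 had a window in that table, 75 windows in all. The ETS motif stood in 34.7% of them, against 8.86% of all 32851 windows, the NRF1 motif in 10.7%, against 3.91%, and the YY1 motif in 17.3%, against 6.34%. The 32851 windows belong to 27025 genes, expressed here or not, so these shares do not compare the members with other expressed genes. A match describes these letters only and says nothing about binding.

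Summed over the 78 genes, the level was highest in the GATA3-KO libraries. The sum was 6263 and 7015 CPM in GATA3-KO IR, 5416 and 6111 in GATA3-KO DMSO, 4620 and 4625 in Rictor-KO IR, 4750 and 4793 in Rictor-KO DMSO, 4296 and 4260 in WT IR, and 4507 and 4562 in WT DMSO. All 4 GATA3-KO libraries lay above the other 8, and the 2 Rictor-KO groups lay above both WT groups. The 2 libraries of each GATA3-KO group were further apart, with SDs of 532 CPM in GATA3-KO IR and 491 in GATA3-KO DMSO, than those of any other group, whose SDs were 3.48 to 38.7 CPM. Both subunits followed the same order of genotypes. The large-subunit genes averaged 4667 CPM in GATA3-KO IR and 3997 in GATA3-KO DMSO, 3181 in Rictor-KO IR and 3300 in Rictor-KO DMSO, and 2942 in WT IR and 3169 in WT DMSO. The small-subunit genes averaged 1943 CPM in GATA3-KO IR and 1741 in GATA3-KO DMSO, 1420 in Rictor-KO IR and 1449 in Rictor-KO DMSO, and 1312 in WT IR and 1345 in WT DMSO. Their ratio stayed between 2.21 and 2.44 in all 12 libraries. In bulk RNA, more RNA per cell and a larger share of cells with much of it cannot be told apart. A CPM is also a share of the library, so a higher sum means more of these RNAs relative to the rest.

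**Figure D1:**
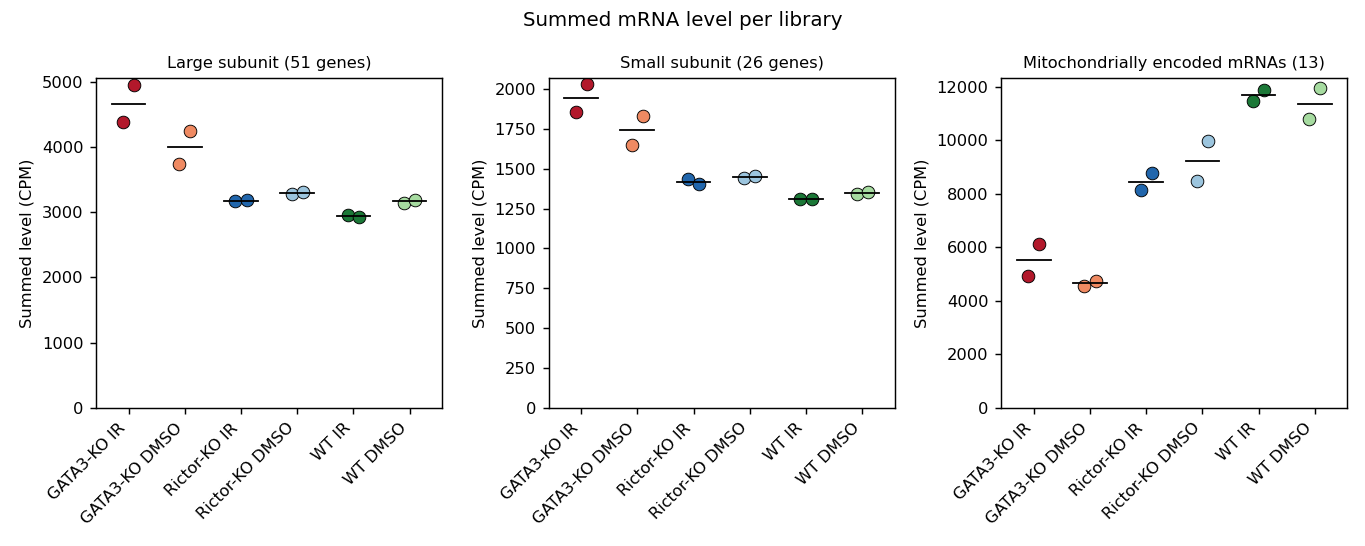
Summed level of the large-subunit genes (51), the small-subunit genes (26) and the 13 mitochondrially encoded mRNAs in each library, in CPM, with a line at the mean of the 2 libraries of a group. The GATA3-KO libraries are the highest for both subunits and the lowest for the mitochondrially encoded mRNAs.

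The mRNAs that this ribosome translates had another order, lowest in GATA3-KO. The 13 mitochondrially encoded mRNAs summed to 4936 and 6112 CPM in GATA3-KO IR and 4561 and 4733 in GATA3-KO DMSO, against 11456 and 11902 in WT IR and 10792 and 11947 in WT DMSO. Rictor-KO lay between, at 8133 and 8781 CPM with isorhamnetin and 8476 and 9973 with DMSO. Of the 13, 11 were lower in GATA3-KO IR than in WT IR and 12 were lower in GATA3-KO DMSO than in WT DMSO, with median log2 fold changes of -0.93 and -1.24, where 32.1% and 27.1% of all genes were lower.

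With isorhamnetin, most mitochondrial ribosomal protein genes were higher in GATA3-KO than in WT cells. By edgeR's quasi-likelihood test, with the Benjamini-Hochberg adjustment over all 11808 genes tested, 62 of 78 were higher and 2 were lower, where 61.6% of all genes were called, 29.6% as higher and 32.1% as lower. The median log2 fold change of the 78 was 0.63, against -0.021 over all genes. Of the 78, 12 were at least 2-fold higher and none 2-fold lower. The share of all genes at least 2-fold apart is not given here or for later comparisons, so such counts describe the members only. All 12 kept their call whichever library was left out.

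**Figure D2:**
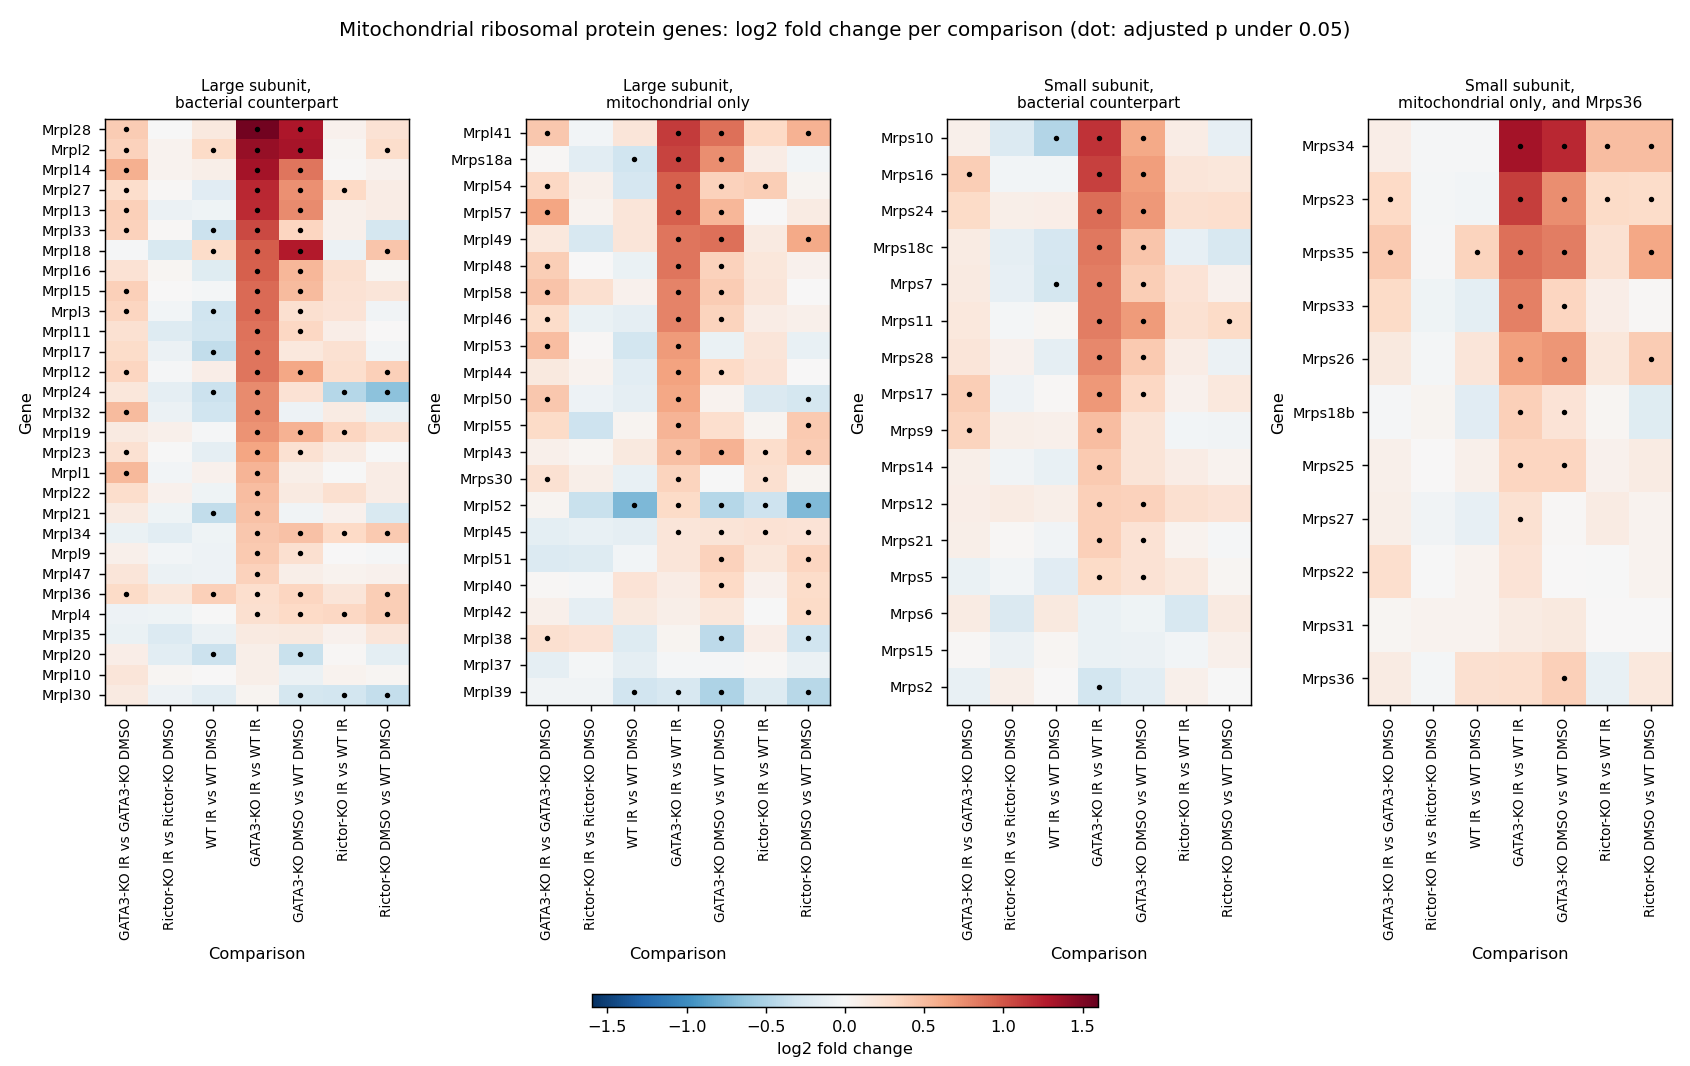
Log2 fold changes of the 78 genes in 4 classes by subunit and by presence of a bacterial counterpart, in 7 comparisons with the first-named group on top of the fold. A dot marks an adjusted p under 0.05, and the columns that set GATA3-KO against WT hold the most dots, 62 of the higher kind with isorhamnetin and 50 with DMSO.

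Among large-subunit proteins with a bacterial counterpart, 25 of 29 were higher and none lower, with a median of 0.75. Mrpl28, the counterpart of bacterial L28 (GRCm38 chromosome 17, 26123500 to 26126613), had 169 and 209 CPM in GATA3-KO IR, against 64.7 and 64.6 in WT IR. Its log2 fold change was 1.55 ± 0.11 (SE, n = 2 libraries per group; adjusted p = 7.7e-08), the largest of the 78. Mrpl2, the counterpart of L2 near the peptidyl transferase centre (chromosome 17, 46646229 to 46650139), had 158 and 170 CPM, against 62.6 and 62.7 in WT IR. Its log2 fold change was 1.39 ± 0.10 (adjusted p = 1.0e-07). Mrpl14, the counterpart of L14 at the subunit interface, had 64.2 and 81.8 CPM in GATA3-KO IR, against 28.2 and 29.9 in WT IR, a log2 fold change of 1.33 ± 0.12. In each of the 3, both GATA3-KO IR libraries were more than 2-fold above both WT IR libraries. Mrpl27, Mrpl13 and Mrpl33, which also have bacterial counterparts, had log2 fold changes of 1.20, 1.19 and 1.05.

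Of the large-subunit proteins particular to mitochondria, 16 of 22 were higher and 1 was lower, with a median of 0.58. Mrpl41 had 71.7 and 92.0 CPM in GATA3-KO IR, against 38.2 and 37.1 in WT IR, a log2 fold change of 1.12 ± 0.12. Mrps18a had 89.9 and 96.8 CPM, against 43.0 and 45.5 in WT IR, a log2 fold change of 1.08 ± 0.09. The lower gene was Mrpl39, at 50.4 and 49.6 CPM in GATA3-KO IR, against 60.7 and 58.4 in WT IR. Its log2 fold change was -0.25 ± 0.08 (adjusted p = 0.012), and the call was lost without WT IR replicate 1 or GATA3-KO IR replicate 2, where leaving out single libraries gave -0.28 to -0.22.

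Of the small-subunit proteins with a bacterial counterpart, 13 of 16 were higher and 1 was lower, with a median of 0.59. Mrps10, the counterpart of S10 (chromosome 17, 47368887 to 47381417), had 95.3 and 105 CPM in GATA3-KO IR, against 43.1 and 46.6 in WT IR. Its log2 fold change was 1.16 ± 0.09 (adjusted p = 1.6e-07). Mrps16, the counterpart of S16, had a log2 fold change of 1.10. Mrps2, the counterpart of S2, was the lower gene at 64.1 and 57.2 CPM in GATA3-KO IR, against 74.5 and 74.1 in WT IR, a log2 fold change of -0.29 ± 0.09 (adjusted p = 0.0098). That call was lost without GATA3-KO IR replicate 2, at -0.21. Of the 10 small-subunit proteins particular to mitochondria, 8 were higher and none lower, with a median of 0.52. Mrps34 had 92.4 and 100.2 CPM in GATA3-KO IR, against 38.1 and 38.5 in WT IR, a log2 fold change of 1.33 ± 0.09 (adjusted p = 5.7e-08). Only 67.1% of the Mrps34 reads were unique, so its level is uncertain. Mrps23 had a log2 fold change of 1.10.

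The difference between GATA3-KO and WT was smaller with DMSO. Of the 78, 50 were higher and 5 lower in GATA3-KO DMSO, with a median of 0.33, where 53.9% of all genes were called, 26.8% as higher and 27.1% as lower, and the median of all genes was 0.0059. Without GATA3-KO DMSO replicate 2 the counts were 28 higher and 5 lower, 33 in all. The 4 classes had medians between 0.32 and 0.35. Of the genes called higher, 47 were so under both treatments, 47 of the 62 with isorhamnetin and 47 of the 50 with DMSO. The 2 comparisons use different libraries of the same lines. The matching overlap over all genes is not given here, so this one does not set the members apart from other genes.

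At least 2-fold higher with DMSO were Mrpl2, Mrpl28, Mrpl18 and Mrps34, all on chromosome 17. Mrpl2 had 115 and 138 CPM in GATA3-KO DMSO, against 48.7 and 52.5 in WT DMSO, a log2 fold change of 1.32 ± 0.10 (adjusted p = 1.9e-07). Mrpl28 had 129 and 156 CPM, against 58.5 and 57.6 in WT DMSO, a log2 fold change of 1.30. Mrpl18, the counterpart of L18, had 150 and 170 CPM in GATA3-KO DMSO, against 65.2 and 67.0 in WT DMSO, a log2 fold change of 1.27. Its span, introns included, overlaps that of the far more abundant Tcp1 on the other strand, so it is uncertain. Mrpl49, particular to mitochondria and on another chromosome, had 59.6 and 72.7 CPM in GATA3-KO DMSO, against 36.6 and 34.9 in WT DMSO, a log2 fold change of 0.89 ± 0.10.

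The 5 genes lower in GATA3-KO DMSO than in WT DMSO were all of the large subunit: Mrpl39, Mrpl52, Mrpl38, Mrpl20 and Mrpl30. Mrpl39 had 52.0 and 52.0 CPM in GATA3-KO DMSO, against 71.9 and 75.2 in WT DMSO, a log2 fold change of -0.50 ± 0.08 (adjusted p = 0.0001). Mrpl52 had 71.2 and 75.4 CPM in GATA3-KO DMSO, against 96.7 and 104 in WT DMSO, a log2 fold change of -0.45 ± 0.10. Mrpl38 had 53.8 and 50.7 CPM in GATA3-KO DMSO, against 71.8 and 67.5 in WT DMSO, a log2 fold change of -0.41 ± 0.08. These 3 calls held whichever library was left out. Mrpl20, at -0.36, lost its call without WT DMSO replicate 2 or GATA3-KO DMSO replicate 1, and Mrpl30, at -0.28, kept its call in 1 of 4 such fits, the one without GATA3-KO DMSO replicate 2. With libraries scaled by their totals alone, the calls of Mrpl20 and Mrpl30 were also lost, at -0.23 and -0.15.

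The 8 members on chromosome 17 stood above the rest. They are Mrpl2, Mrpl14, Mrpl18, Mrpl28, Mrps10, Mrps18a, Mrps18b and Mrps34. All 8 were higher in GATA3-KO than in WT, with medians of 1.25 with isorhamnetin and 1.03 with DMSO. The 631 genes tested on that chromosome were also high as a whole: 54.7% and 59.1% of them were called higher, with medians of 0.53 and 0.54. Against Rictor-KO, all 8 members were again higher, with medians of 1.05 with isorhamnetin and 0.78 with DMSO, where the chromosome's median was 0.46 and 0.47. Between Rictor-KO and WT with DMSO the chromosome's median was 0.064. The part of the chromosome-wide difference in the members' values was not tested. Leaving chromosome 17 out, 54 of 70 members were higher and 2 lower with isorhamnetin, with a median of 0.54, and 42 were higher and 5 lower with DMSO, with a median of 0.32. The 11177 genes tested elsewhere had medians of -0.053 and -0.012.

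**Figure D3:**
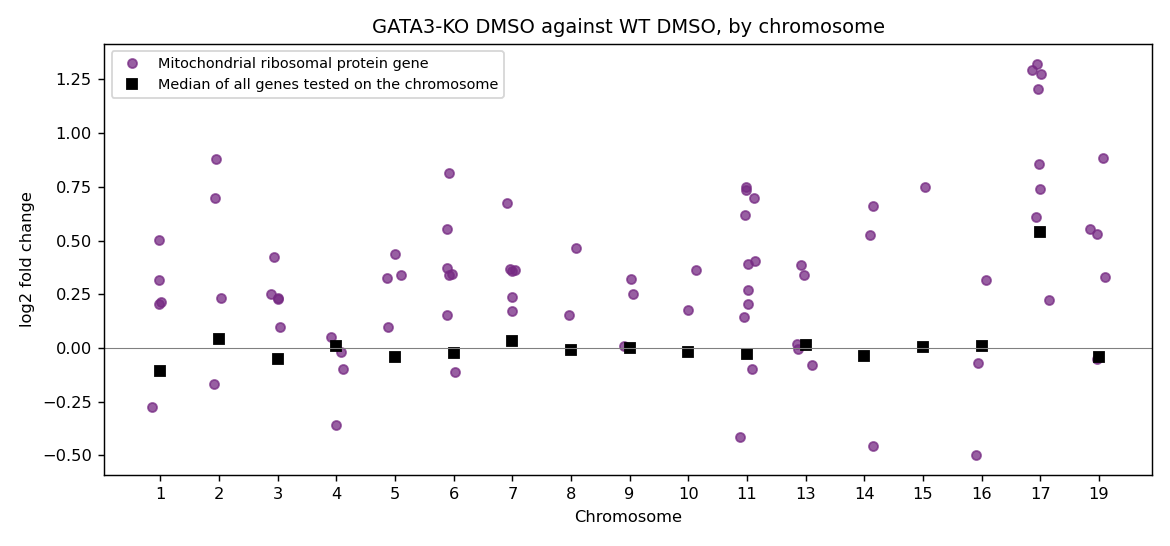
Log2 fold change of GATA3-KO DMSO against WT DMSO by chromosome, with the members as points and the median of all genes tested on each chromosome as a square. On chromosome 17 all 8 members lie above 0 and the chromosome's median is 0.54, while the medians of the other chromosomes shown lie between -0.11 and 0.040.

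The members' difference did not run with their annotated exon length, although that of all genes did. The lengths of the RNAs expressed were not measured, so whether the difference runs with those was not tested. With isorhamnetin, the members' median log2 fold changes of GATA3-KO against WT were 0.63, 0.51, 0.81, 0.52, 0.37, 0.79 and 0.69 in 7 classes of exon length, from up to 1000 bp to over 6000 bp. All 8 members of 4001 to 6000 bp and all 3 over 6000 bp were higher. Over all genes tested the medians fell from class to class, beginning at 0.67 for the shortest and ending at -0.55 for the longest. Spearman's rho between length and log2 fold change was -0.03 over the 78 members and -0.38 over all genes. With DMSO it was -0.09 over the members and -0.23 over all genes. Most members are short, with a median of 1502.5 bp of exon.

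With the trend on length over all genes taken out of each library, a setting added after seeing the data, the members' difference was smaller. With isorhamnetin 45 were then higher and 17 lower, where 27.5% of all genes were higher and 29.6% lower, and the median was 0.31, against -0.016 over all genes. With DMSO 31 were higher and 13 lower, where 24.2% of all genes were higher and 27.9% lower, and the median was 0.095, against -0.029 over all genes. Members called lower thus numbered more than the 2 and 5 without that setting. All 12 genes that were 2-fold higher with isorhamnetin kept their call, at 0.51 to 1.06. What made short genes more abundant in these libraries was not tested.

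**Figure D4:**
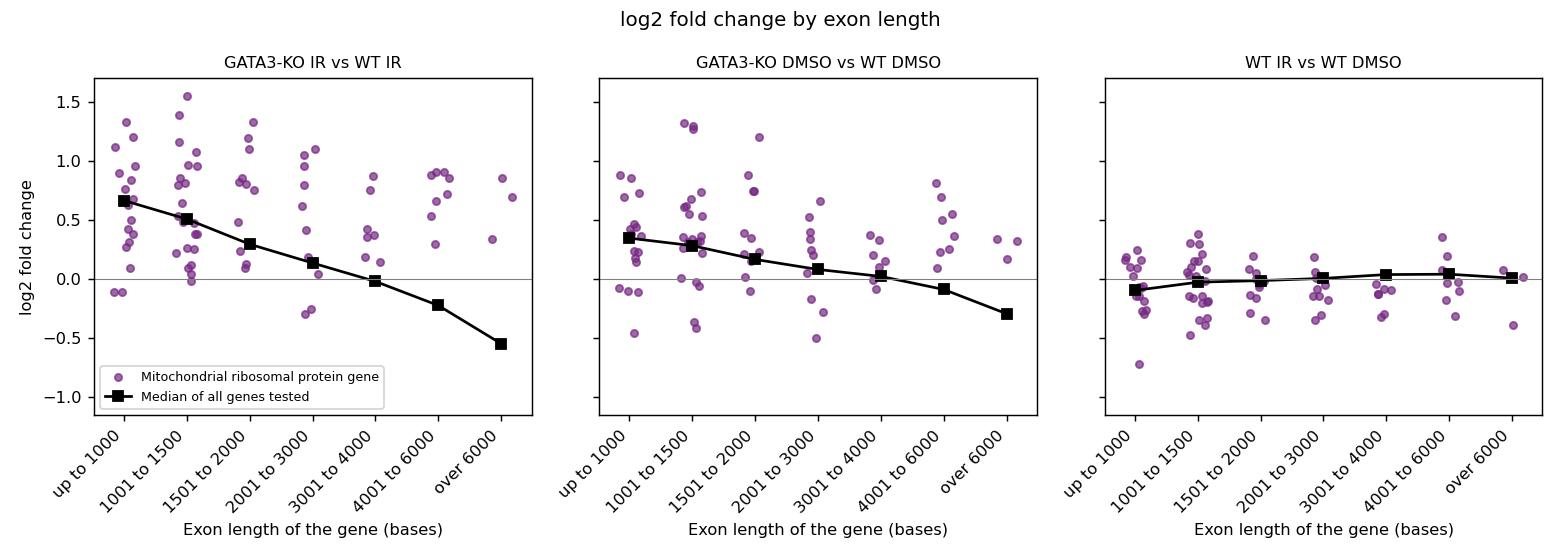
Log2 fold change by length of exon, in 7 classes of length, with the members as points and the median of all genes tested in each class as a square, for GATA3-KO IR against WT IR, GATA3-KO DMSO against WT DMSO and WT IR against WT DMSO. In both GATA3-KO panels the squares slope down, to -0.55 with isorhamnetin and -0.29 with DMSO in the longest class, while the members' medians stay above 0 in every class.

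Against the other knockout, GATA3-KO cells were also higher. With isorhamnetin 54 of 78 were higher and 1 lower in GATA3-KO, with a median of 0.51, where 53.8% of all genes were called, 26.1% as higher and 27.6% as lower. With DMSO 36 were higher and none lower, with a median of 0.24, where 30.1% were called, 15.4% as higher and 14.7% as lower. Leaving out single libraries gave 15 to 43 calls with DMSO: 15 without GATA3-KO DMSO replicate 2, 20 and 21 without Rictor-KO DMSO replicate 1 and replicate 2, and 43 without GATA3-KO DMSO replicate 1. Taking out the trend on length, 39 were higher and 16 lower with isorhamnetin, where 24.3% and 24.6% of all genes were, and 25 were higher and 12 lower with DMSO, where 13.6% and 13% were. Of the genes called higher, 36 were so under both treatments, 36 of the 54 with isorhamnetin and 36 of the 36 with DMSO. That overlap, too, is given without the one over all genes. At least 2-fold higher with isorhamnetin were Mrpl28, Mrpl2, Mrpl14, Mrpl24, Mrpl13, Mrpl18 and Mrps10. Mrpl24, the counterpart of L24 by the exit tunnel, had 121 and 138 CPM in GATA3-KO IR, against 56.0 and 55.9 in Rictor-KO IR, a log2 fold change of 1.21 ± 0.10. The lower gene was Mrps2, at -0.38.

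Rictor-KO cells differed less from WT, and in both directions. With DMSO, 19 of 78 were higher and 6 lower, with a median of 0.070, where 40% of all genes were called, 19.3% as higher and 20.7% as lower. The comparison shares the WT DMSO libraries with that of GATA3-KO, so the 2 sets of values are not independent. With libraries scaled by their totals alone, 33 were higher and 3 lower, where 31.1% and 13.9% of all genes were. With the trend on length taken out, 18 were higher and 10 lower, where 19.1% and 22.6% of all genes were. Without WT DMSO replicate 2, 15 were called in all. Of the small-subunit proteins, 5 of 26 were higher and none lower. Their share of higher calls was near the 19.3% of all genes, while 20.7% of all genes were lower. Mrps35, a small-subunit protein particular to mitochondria, had 51.1 and 55.9 CPM in Rictor-KO DMSO, against 36.8 and 32.8 in WT DMSO, a log2 fold change of 0.62 ± 0.11 (adjusted p = 0.00057). Mrpl49 had 55.2 and 53.5 CPM in Rictor-KO DMSO, against 36.6 and 34.9 in WT DMSO, a log2 fold change of 0.60 ± 0.10. Mrps34, Mrpl34 and Mrpl4 were higher by 0.49, 0.42 and 0.39. These 5 calls held whichever library was left out.

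The 6 genes lower in Rictor-KO DMSO than in WT DMSO were Mrpl52, Mrpl24, Mrpl39, Mrpl30, Mrpl38 and Mrpl50. Mrpl52 had 61.3 and 61.8 CPM in Rictor-KO DMSO, against 96.7 and 104 in WT DMSO, a log2 fold change of -0.71 ± 0.10 (adjusted p = 9.6e-05). Mrpl24 had 65.9 and 57.5 CPM in Rictor-KO DMSO, against 94.5 and 99.9 in WT DMSO, a log2 fold change of -0.66 ± 0.10. Its log2 fold change in GATA3-KO DMSO against WT DMSO was 0.23 and missed the threshold (adjusted p = 0.059). Mrpl38, at -0.32, lost its call without WT DMSO replicate 1, and it and Mrpl30, at -0.38, lost theirs with libraries scaled by totals alone, at -0.16 and -0.22.

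With isorhamnetin, 10 of 78 were higher and 3 lower in Rictor-KO than in WT, with a median of 0.12, where 22% of all genes were called, 9.36% as higher and 12.7% as lower. Every single library moved that count: there were 2 calls without WT IR replicate 1, 4 without WT IR replicate 2, 7 without Rictor-KO IR replicate 1 and 4 without Rictor-KO IR replicate 2. There were 7 higher and 6 lower with the trend on length taken out, where 9.77% and 13% of all genes were. Mrps34 had 57.6 and 50.0 CPM in Rictor-KO IR, against 38.1 and 38.5 in WT IR, a log2 fold change of 0.49 ± 0.09. Mrpl24 had 56.0 and 55.9 CPM in Rictor-KO IR, against 78.0 and 75.1 in WT IR, a log2 fold change of -0.45 ± 0.10. Both calls held whichever library was left out, while those of Mrpl54 at 0.39, Mrpl19 at 0.35 and Mrpl34 at 0.31 each held in 1 of 4 such fits.

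Within a genotype, the response to isorhamnetin was the change from DMSO to isorhamnetin. In GATA3-KO cells, 28 of 78 rose and none fell, with a median of 0.19, where 26.2% of all genes were called, 10.2% as higher and 15.9% as lower. The large subunit gave 23 of the 28, out of 51, with a median of 0.24, and the small subunit 5 of 26, with a median of 0.13. The number called rests on single libraries, while the members' median stayed between 0.11 and 0.28 whichever library was left out. For fits without a library, here and elsewhere, the share of all genes called is not given. Without GATA3-KO DMSO replicate 1 or without GATA3-KO IR replicate 2 no member was called, and without either of the other 2 libraries 29 and 28 were. With the trend on length taken out, 14 were higher and 2 lower, where 10.2% and 12.9% of all genes were, with a median of 0.081. The 2 libraries that decide the count were also the ends of the range of reads from short genes: 16.8% and 18.3% of exon reads lay in genes of up to 1500 bp in GATA3-KO IR replicate 1 and replicate 2, against 14.2% and 15.9% in GATA3-KO DMSO replicate 1 and replicate 2. The part of that difference in the count was not tested beyond the setting given.

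Mrpl57, particular to mitochondria, had 72.0 and 84.2 CPM in GATA3-KO IR, against 44.1 and 57.1 in GATA3-KO DMSO, a log2 fold change of 0.63 ± 0.12 (adjusted p = 0.0034). Mrpl14 had 64.2 and 81.8 CPM in GATA3-KO IR, against 44.0 and 54.3 in GATA3-KO DMSO, a log2 fold change of 0.57 ± 0.12 (adjusted p = 0.0049). In both genes the isorhamnetin libraries lay above the DMSO libraries, as they did for 43 of the 78 members and 32.9% of all genes. The 2 libraries of a group differed by more than 10 CPM. Mrpl50 rose by 0.43 and Mrps35 by 0.42, both particular to mitochondria. Mrps17 and Mrps9, with bacterial counterparts, rose by 0.39 and 0.36. Mrps9 lost its call with the trend on length taken out, at 0.22, and the other 5 named here kept theirs.

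In Rictor-KO cells no member changed with isorhamnetin by edgeR's test or by DESeq2, where edgeR called 1.91% of all genes, 1.43% as higher and 0.483% as lower. At an unadjusted p under 0.05 there were 9, 1 higher and 8 lower, and the median was -0.035. The share of all genes at that level is not given here, so the 9 describe the members only. A fit with a replicate block within each genotype, which takes same-numbered libraries as pairs, called 2 higher and 8 lower, where 5.69% of all genes were higher and 6.33% lower. The labels give no ground for such pairs. Mrpl52, with the largest change, had 51.1 and 45.5 CPM in Rictor-KO IR, against 61.3 and 61.8 in Rictor-KO DMSO, a log2 fold change of -0.35 ± 0.10 (adjusted p = 0.13). Mrps10 had 46.3 and 51.3 CPM in Rictor-KO IR, against 54.9 and 58.5 in Rictor-KO DMSO, a log2 fold change of -0.22 ± 0.09. In both genes the isorhamnetin libraries lay below the DMSO libraries, as they did for 25 of the 78 members and 20.4% of all genes.

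Isorhamnetin changed a minority of these genes in WT cells. Of the 78, 4 were higher and 11 lower, with a median log2 fold change of -0.065, where 38.1% of all genes were called, 19.8% as higher and 18.3% as lower, and the median of all genes was 0.010. The direction of the whole set depended on the scaling. With libraries scaled by totals alone, 15 were higher and 2 lower, where 30.4% and 10.6% of all genes were, and the median was 0.094 while that of all genes was 0.17. Relative to all genes the members thus lay lower by either scaling. On the deposited TPM their sum was 7356 and 7526 in WT IR, against 6872 and 6959 in WT DMSO. Without WT DMSO replicate 2, 3 members were called, without WT IR replicate 2, 4 were, and without WT IR replicate 1, 8 were.

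The fall of Mrpl52 was the largest. It had 67.7 and 54.3 CPM in WT IR, against 96.7 and 104 in WT DMSO, a log2 fold change of -0.72 ± 0.10 (adjusted p = 0.0001), and between -0.89 and -0.57 without 1 library. Mrps10 had 43.1 and 46.6 CPM in WT IR, against 61.3 and 63.1 in WT DMSO, a log2 fold change of -0.47 ± 0.09 (adjusted p = 0.00097). Mrpl36, the counterpart of L36 and among the smallest of the ribosomal proteins, rose. It had 43.1 and 46.2 CPM in WT IR, against 33.9 and 34.5 in WT DMSO, a log2 fold change of 0.38 ± 0.09 (adjusted p = 0.0035). These 3 calls held whichever library was left out and by either scaling.

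The other calls in WT were less stable. Mrpl17 and Mrpl21, both with a log2 fold change of -0.39, kept their calls in 1 and 2 of 4 fits without a library, and Mrpl39, at -0.30, in 2. With libraries scaled by totals alone all 3 missed the threshold, at -0.23 for Mrpl17 and Mrpl21 and -0.15 for Mrpl39. Mrps35, higher by 0.36, kept its call in 1 of 4, and Mrpl2 and Mrpl18, higher by 0.31 and 0.29, in none.

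A few members were called in both the GATA3-KO and the WT response, which share no library. Mrpl2, Mrpl36 and Mrps35 rose in both. Mrpl3, the counterpart of L3, rose in GATA3-KO and fell in WT. It had 202 and 228 CPM in GATA3-KO IR, against 157 and 184 in GATA3-KO DMSO, and 119 and 111 CPM in WT IR, against 146 and 140 in WT DMSO. Mrpl33, the counterpart of L33, likewise rose in GATA3-KO, by 0.37, and fell in WT, by 0.34. The falls of both genes in WT missed the threshold with libraries scaled by totals alone, at -0.16 for Mrpl3 and -0.18 for Mrpl33. Of 4 fits without a library in WT, Mrpl3 was called in 1 and Mrpl33 in none. The rises of Mrpl2, Mrpl33 and Mrpl36 in GATA3-KO missed the threshold when the trend on length was taken out, at 0.19, 0.33 and 0.13. Across the 78 members, the responses of GATA3-KO and WT had Pearson's r = 0.15 and Spearman's rho = 0.13. The values were 0.29 and 0.26 between Rictor-KO and WT and 0.33 and 0.31 between GATA3-KO and Rictor-KO. These describe genes measured in the same libraries, which are not independent of each other.

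**Figure D5:**
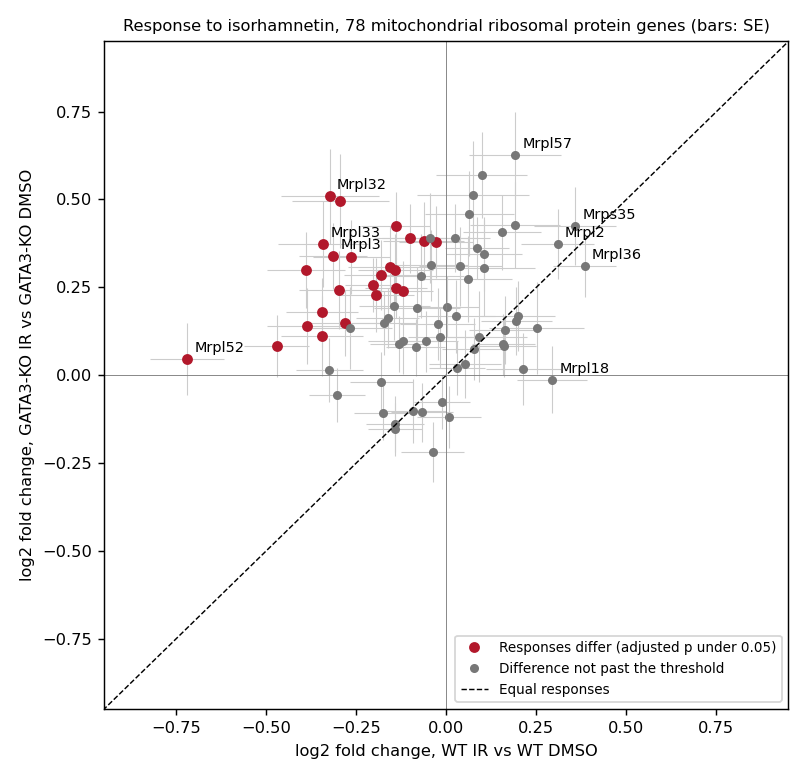
Response to isorhamnetin (log2 fold change of IR against DMSO) of the 78 genes in GATA3-KO on the vertical axis and in WT on the horizontal axis, with bars of 1 SE. Red points are the 24 genes whose response differed between the genotypes, and all 24 lie above the line of equal response, while with libraries scaled by totals alone 11 were higher and 1 lower.

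The responses themselves were compared in the same model. The response of GATA3-KO exceeded that of WT for 24 of 78 and fell short for none, with a median difference of 0.27, where 28% of all genes were called, 12.4% as higher and 15.5% as lower. Leaving out single libraries gave 8 without GATA3-KO IR replicate 2, 10 without GATA3-KO DMSO replicate 1 and 10 to 13 without a WT library, against 32 without GATA3-KO DMSO replicate 2 and 29 without GATA3-KO IR replicate 1. With the trend on length taken out, 14 were higher and 3 lower, where 13.6% and 12.5% of all genes were. With libraries scaled by totals alone, 11 were higher and 1 lower, where 7.4% and 22.3% were. Mrpl32, the counterpart of L32, had the largest difference. It had 57.0 and 73.1 CPM in GATA3-KO IR, against 41.4 and 50.0 in GATA3-KO DMSO, and 39.2 and 37.9 CPM in WT IR, against 50.1 and 46.4 in WT DMSO. The difference of its responses was 0.83 ± 0.19 (adjusted p = 0.0063), while its own response in WT missed the threshold. Mrpl53 was next with 0.79 ± 0.19, but none of its reads were unique. Mrpl52 came after it with 0.77 ± 0.15 (adjusted p = 0.0020). Mrpl52 fell in WT and had 73.4 and 78.0 CPM in GATA3-KO IR, against 71.2 and 75.4 in GATA3-KO DMSO. With the trend on length taken out, the difference for Mrpl52 was 0.39 and missed the threshold. Mrpl17, Mrpl3 and Mrps10 differed by 0.69, 0.65 and 0.55. Mrpl32, Mrpl52 and these 3 kept their calls whichever library was left out.

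The response of Rictor-KO differed from that of WT for 3 of 78, 1 higher and 2 lower, where 13.8% of all genes were called, 6.65% as higher and 7.11% as lower. With libraries scaled by totals alone none was higher and 5 were lower, where 4.66% and 11.7% of all genes were. Mrpl38, particular to mitochondria, had 64.9 and 64.8 CPM in Rictor-KO IR, against 56.0 and 55.8 in Rictor-KO DMSO, and 61.0 and 59.9 CPM in WT IR, against 71.8 and 67.5 in WT DMSO. The difference of its responses was 0.42 ± 0.11 (adjusted p = 0.021). Mrpl18 differed by -0.53 and Mrpl49 by -0.46. Of 8 fits without a library, Mrpl18 was called in 3 and Mrpl38 and Mrpl49 in 1 each. Between the responses of GATA3-KO and Rictor-KO, edgeR called 0 members and 0% of all genes. There were 29 members at an unadjusted p under 0.05, all higher in GATA3-KO, and DESeq2 called 7. The matching shares of all genes are not given here, so neither count sets the members apart from other genes.

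Members differed in how much they varied over the 12 libraries. Mrpl28 spanned 57.6 to 209 CPM, 3.64-fold, followed by Mrpl2 at 3.49-fold, Mrpl14 at 3.15-fold and Mrpl41 at 2.85-fold. Mrps15, the counterpart of S15, stayed between 55.0 and 64.5 CPM, 1.17-fold, and Mrpl37 varied 1.18-fold. No comparison gave a call for Mrpl10, Mrpl35, Mrpl37, Mrps6, Mrps15, Mrps22 and Mrps31. For 58 of the 78 the highest of the 12 libraries was one of GATA3-KO IR. The lowest was one of WT IR for 36 and of WT DMSO for 21. Such counts were not made over all genes, so they do not set the members apart from other genes.

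Promoter motifs were set beside the difference between GATA3-KO IR and WT IR, as a description. Of 26 members with an ETS match, 24 were higher and none lower, with a median of 0.74, and of 43 without one, 30 were higher and 2 lower, with a median of 0.49. The medians were 0.46 for 8 members with an NRF1 match and 0.62 for 61 without. They were 0.39 for 13 members with a YY1 match and 0.58 for 56 without. Of all genes tested, 29.6% were called higher, and the share among other genes with these motifs was not worked out.

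Of the proteins of the same ribosome that carry other names, most were higher in GATA3-KO than in WT. Of 6 such genes looked for, 5 were found: Dap3, Ptcd3, Chchd1, Gadd45gip1 and Aurkaip1. The other, Ict1, is listed as Mrpl58 and is a member. All 5 were higher in GATA3-KO IR than in WT IR and 4 in GATA3-KO DMSO than in WT DMSO, where 29.6% and 26.8% of all genes were higher. In Rictor-KO, 4 were higher with DMSO and 2 with isorhamnetin than in WT, where 19.3% and 9.36% of all genes were. Chchd1, a small-subunit protein, averaged 122 CPM in GATA3-KO IR and 48.3 in WT IR, a log2 fold change of 1.34 ± 0.12. Dap3, a GTP-binding protein of the small subunit, averaged 147 CPM in GATA3-KO DMSO and 91.4 in WT DMSO, a log2 fold change of 0.68 ± 0.08. In Rictor-KO DMSO it averaged 135 CPM, a log2 fold change of 0.56 ± 0.08 against WT DMSO. Aurkaip1 missed the threshold in both comparisons with DMSO, at 0.12 in GATA3-KO and -0.11 in Rictor-KO, and lay at -0.14 in Rictor-KO IR against WT IR.

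Of 29 genes known to assemble the mitochondrial ribosome, 17 were higher and 2 lower in GATA3-KO IR than in WT IR, and 11 were higher and 4 lower in GATA3-KO DMSO than in WT DMSO. In all, 65.5% and 51.7% of them were called, against 61.6% and 53.9% of all genes. By direction, 58.6% were higher and 6.90% lower with isorhamnetin, where 29.6% and 32.1% of all genes were. With DMSO 37.9% were higher and 13.8% lower, where 26.8% and 27.1% of all genes were. Rbfa, which binds the immature small subunit, averaged 73.4 CPM in GATA3-KO DMSO and 29.4 in WT DMSO, a log2 fold change of 1.32 ± 0.09. Tfb1m, the methyltransferase of the small-subunit RNA, averaged 27.5 CPM in GATA3-KO IR and 14.1 in WT IR, a log2 fold change of 0.96. Ddx28, a helicase of large-subunit assembly, had a log2 fold change of -0.64 in GATA3-KO DMSO against WT DMSO. It fell by 0.79 with isorhamnetin in WT, where 5 of the 29 rose and 3 fell, 27.6% called against 38.1% of all genes.

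Of 15 factors of mitochondrial translation, 10 were higher and 4 lower in GATA3-KO IR than in WT IR, and 7 were higher and 1 lower with DMSO. In all, 93.3% and 53.3% were called, against 61.6% and 53.9% of all genes. By direction, 66.7% were higher and 26.7% lower with isorhamnetin, where 29.6% and 32.1% of all genes were. With DMSO 46.7% were higher and 6.67% lower, where 26.8% and 27.1% of all genes were. Guf1, a GTPase of elongation, averaged 78.0 CPM in GATA3-KO IR and 44.6 in WT IR, a log2 fold change of 0.81 ± 0.09. Mtif2, the initiation factor, had a log2 fold change of 0.89. Tufm, the elongation factor that brings tRNA to the ribosome, was lower, at 93.2 CPM in GATA3-KO IR and 122 in WT IR, a log2 fold change of -0.39.

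Of 9 regulators of mitochondrial genes that were tested, out of 10, 1 was higher and 5 were lower in GATA3-KO IR than in WT IR, and 2 were higher and 3 lower with DMSO. The shares called were 66.7% and 55.6%, against 61.6% and 53.9% of all genes. By direction, 11.1% were higher and 55.6% lower with isorhamnetin, where 29.6% and 32.1% of all genes were. With DMSO 22.2% were higher and 33.3% lower, where 26.8% and 27.1% of all genes were. Pprc1, a coactivator of the PGC-1 family, averaged 70.8 CPM in GATA3-KO IR and 146 in WT IR, a log2 fold change of -1.05 ± 0.11. Gabpa, the DNA-binding subunit of GABP, averaged 87.8 CPM in GATA3-KO IR and 134 in WT IR, a log2 fold change of -0.61 ± 0.09. Esrra, an orphan nuclear receptor, was the higher gene at 74.3 CPM in GATA3-KO IR and 38.2 in WT IR. Myc, a transcription factor of growth, averaged 12.4 CPM in Rictor-KO DMSO, 15.3 in GATA3-KO DMSO and 109 in WT DMSO. The log2 fold changes against WT DMSO were -3.14 ± 0.48 in Rictor-KO and -2.83 ± 0.47 in GATA3-KO. Myc was also lower in GATA3-KO IR than in WT IR, at -1.32, and lower with isorhamnetin in WT, at -1.43. In Rictor-KO IR against WT IR it lay at -1.32 and missed the threshold.

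Other gene families of protein synthesis and respiration give the members' values a scale. In GATA3-KO IR against WT IR the members' median was 0.63. The 81 cytosolic ribosomal protein genes had a median of 0.90, with 77 higher and none lower. The 76 nuclear genes of oxidative phosphorylation had a median of 0.74, with 68 higher and 2 lower. Of all genes tested there, 29.6% were higher and 32.1% lower. In GATA3-KO DMSO against WT DMSO the median was 0.33 for the members, 0.41 for the cytosolic ribosomal protein genes and 0.39 for the oxidative phosphorylation genes. In the WT response, 45 of the 81 cytosolic genes fell and none rose, while 1 of the 76 oxidative phosphorylation genes rose and none fell. Of all genes tested, 19.8% rose and 18.3% fell in that response. For these other families, values with another scaling or with the trend on length taken out are not given here. The differences between these sets were not tested.

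The authors' deposited table of isorhamnetin against DMSO called 22 members higher and none lower in GATA3-KO, none in Rictor-KO, and 5 higher and 16 lower in WT, at a false discovery rate under 0.05. Of all genes with a value in the authors' deposited table, 9.13% were higher and 11.4% lower in GATA3-KO, 0.859% and 0.277% in Rictor-KO, and 19.4% and 18% in WT. The rates there are rounded, and members printed at exactly 0.05, 4 in GATA3-KO and 2 in WT, were not counted. The signs in the authors' deposited table matched those of the fit for 77 members in GATA3-KO, 77 in Rictor-KO and 78 in WT.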

How the data were processed

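The data are 12 RNA-seq libraries of J774.1 cells, 2 per group, mapped to GRCm38 per the submitters' processing notes. The aligner, the counting tool and whether strand was used are not given in the sources used here. For each gene and library the authors deposited counts (total and unique exon reads, total gene reads), TPM and RPKM, and separate tables with the authors' log2 fold changes and p-values for isorhamnetin against DMSO.

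Total exon read counts as deposited were tested. Genes were kept by edgeR's filterByExpr over the 6 groups, 11808 of the 15156 with an exon read. Libraries were scaled by TMM, and edgeR's quasi-likelihood test (edgeR 4.0.16, R 4.3.3) was fitted with a mean for each group over all 12 libraries. This left 6 residual degrees of freedom, and the common biological coefficient of variation was 0.11. Each of 12 contrasts was adjusted by Benjamini-Hochberg over all genes tested, with a threshold of 0.05. The standard error is the log2 fold change over the square root of F. The fit was checked on simulated data. TPM served for levels between genes and the RPKM of the libraries were not used for tests. Promoter windows and their build are those of RefSeq, and the 3 motifs were set after the values were seen, and exon lengths are those in the files.

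Alternatives were DESeq2 1.42.0 size factors and test, library totals as the scaling, no filter, unique exon reads, total gene reads, only the compared libraries, a replicate block and each library left out. An offset for exon length, with or without GC content, was added after seeing the data (loess, span 0.3; GC content for 11797 genes).

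The members and the lists were chosen with earlier results of these data known. Genes named are, for each contrast, up to 5 called members in each direction by smallest p, the member with the smallest p in each role class, the 3 members with the highest and the 3 with the lowest level per length, and up to 3 genes of each companion list by smallest p. Other genes named were chosen after their values were seen: members at least 2-fold apart, those with a called difference of responses, those called in both the GATA3-KO and the WT response, the most and least variable, and single members of lists. Values in CPM rest on 487 exon reads or more per member and library, and p-values cover the spread between libraries only.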

Additional observations from a re-analysis of the deposited data

Results flagged for a closer look

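These are the members whose response to isorhamnetin differed between a knockout and WT, by the difference of the log2 fold changes in edgeR's model with the Benjamini-Hochberg adjustment over all genes tested. Groups of 2 libraries are too small to look for single outlying libraries.

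Large-subunit genes with a bacterial counterpart made up most of those with a higher response in GATA3-KO than in WT. Mrpl32 differed by 0.83 ± 0.19 (SE; adjusted p = 0.0063), Mrpl33 by 0.71 ± 0.18 (0.0087), Mrpl17 by 0.69 ± 0.15 (0.0054) and Mrpl3 by 0.65 ± 0.13 (0.0031). Mrpl11 differed by 0.54, Mrpl21 by 0.53 and Mrpl24 by 0.52, with adjusted p-values of 0.022, 0.021 and 0.014. Mrpl27, Mrpl20, Mrpl13, Mrpl16, Mrpl15 and Mrpl23 differed by 0.47, 0.46, 0.44, 0.42, 0.41 and 0.39, with adjusted p-values between 0.027 for Mrpl27 and 0.049 for Mrpl13.

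Among large-subunit genes particular to mitochondria, Mrpl53 differed by 0.79 ± 0.19 (adjusted p = 0.0077). None of its reads were unique, so its value is uncertain. Its span overlaps that of another gene on the same strand, and overlap of the exons was not checked. Mrpl52 differed by 0.77, Mrpl54 by 0.60 and Mrpl50 by 0.57, with adjusted p-values of 0.0020, 0.0099 and 0.0070. Mrpl48 differed by 0.49, Mrpl38 by 0.46, Mrpl46 by 0.44 and Mrps30 by 0.36. In the small subunit, Mrps10 differed by 0.55 ± 0.13 (adjusted p = 0.0059), Mrps33 by 0.46 and Mrps7 by 0.43. Of these, Mrpl3, Mrpl17, Mrpl32, Mrpl38, Mrpl50, Mrpl52, Mrpl53 and Mrps10 were called in each of 8 fits without a library. Mrpl33 was called in 7, Mrpl54 in 6 and the others in 2 to 4.

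Between Rictor-KO and WT, Mrpl38 differed by 0.42 ± 0.11 (adjusted p = 0.021), Mrpl18 by -0.53 ± 0.14 (0.019) and Mrpl49 by -0.46 ± 0.14 (0.049). The differences of both knockouts share the WT libraries.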

How the results depend on the processing

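No called value of a named member changed sign under any alternative run. RLE scaling, no filter, unique exon reads and total gene reads kept all 12 counts of called members within 1.5 times and all 12 medians within the spread. With library totals as the scaling, medians moved to 0.094 (WT response), 0.23 (Rictor-KO DMSO against WT DMSO), 0.45 (GATA3-KO DMSO against WT DMSO), -0.083 (difference of the Rictor-KO and WT responses) and 0.13 (difference of the GATA3-KO and WT responses). Of all medians, 3 changed sign there, those of the WT response, of the Rictor-KO response (0.0014) and of the difference of those responses. The counts for the differences of the Rictor-KO and the GATA3-KO response from that of WT were 5 and 12, and the sums in WT DMSO were 4111 and 4167 CPM. With only the compared libraries the counts were 24 (WT response), 16 (GATA3-KO response) and 22 (GATA3-KO DMSO against Rictor-KO DMSO). DESeq2 called 7 for the difference of the GATA3-KO and Rictor-KO responses, where edgeR called 0. Most counts in this section stand without the share of all genes called, so they show only how a setting moved them.

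With the length offset the GATA3-KO response had 16 calls. The medians were 0.081 (GATA3-KO response), 0.095 and 0.075 (GATA3-KO DMSO against WT DMSO and Rictor-KO DMSO), 0.31 and 0.22 (GATA3-KO IR against WT IR and Rictor-KO IR), and 0.15 and 0.12 (GATA3-KO response minus that of WT and of Rictor-KO). With GC content added, these medians were 0.090, 0.093, 0.053, 0.28, 0.22, 0.17 and 0.13, and 5 members were called for the Rictor-KO minus WT response. Of 122 values of named members, 104 kept their side of the threshold with the length offset and 96 with library totals. The cause was not tested.

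The labels do not tie the replicate numbers to a culture or day. Same-numbered libraries of a genotype deviated together with r = 0.067 in GATA3-KO, 0.447 in Rictor-KO and -0.033 in WT over 11808 genes, and with r = 0.617, 0.497 and -0.104 over the 78 members. With no label for a pairing and no correlation in WT, the numbers are not taken as pairs, although members deviated together by number in both knockouts. With a replicate block, 2 members were called for GATA3-KO minus Rictor-KO responses, and no other count moved by over 1.5 times. With a replicate block within each genotype the counts were 43, 10 and 35 for the GATA3-KO, Rictor-KO and WT responses (where 43.8% of all genes were called for GATA3-KO and 52.6% for WT), 34 for Rictor-KO IR against WT IR, and 45, 14 and 35 for the differences GATA3-KO minus WT, Rictor-KO minus WT and GATA3-KO minus Rictor-KO.

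Without single libraries, counts ran from 0 to 29 (GATA3-KO response), 0 to 0 (Rictor-KO response), 3 to 11 (WT response), 56 to 60 and 33 to 54 (GATA3-KO against WT with IR and DMSO), 46 to 55 and 15 to 43 (GATA3-KO against Rictor-KO with IR and DMSO), 2 to 7 and 15 to 21 (Rictor-KO against WT with IR and DMSO), 8 to 32, 0 to 3 and 0 to 21 (differences GATA3-KO minus WT, Rictor-KO minus WT and GATA3-KO minus Rictor-KO). The medians ran, in the same listing, from 0.11 to 0.28, -0.052 to -0.025, -0.069 to -0.056, 0.56 to 0.72, 0.22 to 0.38, 0.43 to 0.59, 0.15 to 0.35, 0.087 to 0.12, 0.063 to 0.093, 0.21 to 0.37, 0.0084 to 0.056 and 0.14 to 0.34. With 2 libraries per group, the fit without a library assumes that the lone library varies like the other groups.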

Other observations

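Of the 20 mitochondrial tRNA synthetase genes, whose enzymes charge the tRNAs that this ribosome uses, 9 were higher and 2 lower in GATA3-KO IR than in WT IR, and 10 higher and 1 lower in GATA3-KO DMSO than in WT DMSO. In each, 55% were called, against 61.6% and 53.9% of all genes. By direction, 45% were higher and 10% lower with isorhamnetin, where 29.6% and 32.1% of all genes were. With DMSO 50% were higher and 5% lower, where 26.8% and 27.1% of all genes were. In Rictor-KO DMSO, 7 were higher and none lower than in WT DMSO, among them Vars2 at 1.11 and Cars2 at 1.03 on the log2 scale. These were 35% of the list, where 19.3% of all genes were higher and 20.7% lower. With isorhamnetin 6 rose and none fell in GATA3-KO, 30% called, where 10.2% of all genes rose and 15.9% fell. In WT 5 rose and 2 fell, 25% and 10%, where 19.8% and 18.3% of all genes did. Fars2 and Hars2 had log2 fold changes of 1.39 and 1.05 in GATA3-KO IR against WT IR.

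Of 11 genes of mitochondrial transcription and the nucleoid, 5 were higher and 2 lower in GATA3-KO IR than in WT IR, and 4 higher and 1 lower in GATA3-KO DMSO than in WT DMSO. The shares called were 63.6% and 45.5%, against 61.6% and 53.9% of all genes. By direction, 45.5% were higher and 18.2% lower with isorhamnetin, where 29.6% and 32.1% of all genes were. With DMSO 36.4% were higher and 9.09% lower, where 26.8% and 27.1% of all genes were. Tfam, which packs mitochondrial DNA and starts its transcription, had log2 fold changes of 0.64 with isorhamnetin and 0.49 with DMSO, while the mRNAs transcribed from that DNA were lower in the same comparisons. Mgme1, a nuclease of mitochondrial DNA, had log2 fold changes of 0.85 in GATA3-KO DMSO and 0.92 in Rictor-KO DMSO, both against WT DMSO.

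How reads were assigned limits some members. Of the 78, 65 had only unique exon reads, and 4 had under 90% unique reads: Mrpl53 with 0%, Mrps34 with 67.1%, Mrps25 with 68.7% and Mrps6 with 82.1%. The annotated spans of 24 members, introns included, overlap that of another gene with reads, and Mrpl46 and Mrps11 overlap each other. Overlap of exons was not checked separately. Whether strand was used in counting is not given in the sources used here.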
